A study of Mus musculus with 26 samples.

Results

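The Nr4a nuclear receptor family consists of Nr4a1, Nr4a2 and Nr4a3, and its expression was followed in TCRTg101, CD8 T cells that carry a transgenic T cell receptor for an antigen of the C1498 leukemia. The members were the 3 genes with these symbols, out of 35882 genes with an annotated transcript in the data, and all 3 were among the 15442 genes with enough counts to be tested. Each gene's level is the sum of the estimated counts of its transcripts, given as its CPM, the count scaled to a fixed library total, after scaling by the trimmed mean of M-values (TMM). A gene was called changed when its adjusted p in edgeR's quasi-likelihood test was under 0.05.

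Nr4a proteins are transcription factors that act without a known hormone ligand, so their activity is set largely by how much of each protein a cell makes. T cell receptor signalling induces all 3 genes within a short time as immediate early genes. They are also known from tolerant and exhausted CD8 T cells, where they restrain effector genes.

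The donor mice were C57BL/6, 6 weeks old and labelled as wild type, and the study's methods state that the transgenic line was kept on a Rag2-/- background. Naive TCRTg101 were transferred into mice that then received C1498 cells intravenously, and were sorted by FACS for low-input RNA-seq. Each of the 14 libraries below belonged to 1 of 7 groups. The 3 control libraries came from spleens without leukemia. Replicates 1 and 2 were naive cells of day 0, and replicate 3 was labelled as from untreated mice on day 18. Leukemia-bearing mice gave 2 early spleen libraries (day 7), 1 mid spleen library (day 14), 2 early liver libraries (day 7), 3 mid liver libraries (days 13, 13 and 14) and 2 late liver libraries (days 18 and 16). The undivided library (day 18) held cells that kept a high level of the division dye CellTrace Violet. Its label gives leukemia-bearing mice as the source and spleen as the tissue. Control 1, mid liver 1 and late liver 1 carry TG in their titles and the other 11 libraries carry XC, which was treated as the sequencing batch. No label says that replicates came from separate mice, so p-values measure the spread between these libraries, which may be technical.

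Libraries held 22918996 to 71358287 estimated counts. The 8 CD8 T cell markers summed to 4779 to 10220 CPM and none was at 0 in any library, and Cd4 was at most 5.34 CPM. The 6 hepatocyte markers summed to 0.21 to 0.325 CPM in the controls and 0.199 in the undivided library, against 1.82 to 7.48 in early liver, 2.63 to 176.4 in mid liver and 65.9 to 290.1 in late liver libraries. Myeloid markers summed to 10.6 to 498.7 CPM in the controls and to 12.5 to 51.6 in mid and late liver libraries. Erythroid markers summed to 2501, 10090 and 63.7 CPM in the controls and to at most 104.0 in the other 11 libraries. The part of these markers in the comparisons with control was not tested. Early spleen 2 had the lowest depth and the most genes with at least 10 counts, 19805, against 13511 to 17004 in the other 13 libraries. Early liver 1 and 2 stood far apart for every member.

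Nr4a1 (ENSMUSG00000023034.7) lies at chr15:101254269-101274795 on the forward strand of GRCm38, Nr4a2 (ENSMUSG00000026826.13) at chr2:57106830-57124003 on the reverse strand, and Nr4a3 (ENSMUSG00000028341.9) at chr4:48045153-48086447 on the forward strand. Their promoters are shown because the members' levels are compared throughout and because the cyclic AMP response element (CRE), bound by CREB family factors, is an established element of Nr4a genes. The RefSeq windows of GRCm38.p6 span 250 bases before to 50 bases after an annotated start. The sequences run 5′ to 3′ at chr15:101266596-101266845 (forward strand), chr2:57124004-57124253 (reverse strand) and chr4:48045055-48045152 (forward strand), and stop at the first annotated transcript base of the window. Capitals mark CRE cores, TGACG or its reverse complement CGTCA.
Nr4a1: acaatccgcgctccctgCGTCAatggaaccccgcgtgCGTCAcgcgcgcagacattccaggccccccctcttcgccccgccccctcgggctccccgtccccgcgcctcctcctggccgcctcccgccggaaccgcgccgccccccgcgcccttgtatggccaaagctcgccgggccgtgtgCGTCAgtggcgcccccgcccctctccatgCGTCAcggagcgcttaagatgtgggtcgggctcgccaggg
Nr4a2: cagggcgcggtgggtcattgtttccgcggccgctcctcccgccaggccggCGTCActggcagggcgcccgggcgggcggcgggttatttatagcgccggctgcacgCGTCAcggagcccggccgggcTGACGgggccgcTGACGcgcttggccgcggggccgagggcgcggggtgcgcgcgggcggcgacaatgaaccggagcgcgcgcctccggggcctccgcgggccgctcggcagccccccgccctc
Nr4a3: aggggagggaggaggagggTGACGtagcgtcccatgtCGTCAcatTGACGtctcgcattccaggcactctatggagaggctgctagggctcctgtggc
Each full window held 4 CRE cores, of which 3 fall in the printed stretch of Nr4a3. Among all 32851 windows of the same length, 20.8% held at least 1 core and 0.231% at least 4. The windows of Nr4a1, Nr4a2 and Nr4a3 were 72.3%, 81.7% and 64.7% G or C, and these shares were not matched for base content. None of the 3 windows held the full CRE, TGACGTCA, which was in 1.79% of all windows and overlaps the core. The NBRE, AAAGGTCA, to which Nr4a proteins bind as monomers, was in no member's window and in 1.51% of all windows. The NFAT core GGAAA, searched on both strands like the others, occurred once in the Nr4a2 window and in 61.3% of all windows. The Nr4a2 window precedes the start of the models that reach furthest upstream, Nr4a2-203 and Nr4a2-206, which held at most 8.2% and 14.9% of the gene's counts in any of the 14 libraries.

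Nr4a1, often called Nur77, had the highest level of the family per transcript length when coding transcripts were counted (TPM, transcripts scaled for length and depth), and was higher in mid liver than in any control. It stood at 129.8, 102.8 and 37.8 CPM in the controls, a mean of 90.1 ± 47.3 (SD, n = 3). It was at 52.5 CPM in the undivided library, 86.8 and 52.3 in early spleen and 122.7 in mid spleen. The 4 libraries from the undivided, early spleen and mid spleen groups thus lay within the range of the controls. That range runs from the day 18 control (37.8 CPM) to a day 0 control (129.8 CPM), and all 4 were above the day 18 control. In early liver it was at 910.5 CPM in replicate 1 and 60.7 in replicate 2, so that one library was far above the controls and the other among them. It was at 348.3, 870.2 and 324.5 CPM in mid liver (514.4 ± 308 SD, n = 3) and at 194.7 and 126.1 CPM in late liver (160.4 ± 48.6 SD, n = 2). All mid liver libraries were above all controls, while late liver 2 was below control 1. In the order of group means (undivided, early spleen, control, mid spleen, late liver, early liver, mid liver), the first 4 groups did not differ beyond the spread of the controls, and early liver overlapped every other group except the undivided library, which was below both of its values.

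Nr4a2, also known as Nurr1, had the largest difference between control and late liver in the family. It was at 12.8, 9.33 and 7.12 CPM in the controls (9.74 ± 2.85 SD, n = 3), 9.26 in the undivided library, and 14.7 and 10.7 in early spleen. Mid spleen had 45.4 CPM, above all 3 controls and both early spleen libraries. Early liver was again split, with 326.2 CPM in replicate 1 and 22.6 in replicate 2, the latter still above every control. It was at 173.3, 307.8 and 169.4 CPM in mid liver (216.8 ± 78.8 SD, n = 3) and at 190.9 and 170.1 in late liver (180.5 ± 14.7 SD, n = 2). The mid and late liver libraries overlapped each other, and the lowest of the 5 was 13.3 times the highest control. In the order of means (undivided, control, early spleen, mid spleen, early liver, late liver, mid liver), the first 3 groups overlapped, and so did the last 3.

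Nr4a3, also known as Nor1, was the lowest member in TPM of coding transcripts and, like Nr4a1, was lower in both late liver libraries than in any mid liver library. It was at 6.67, 10.8 and 7.87 CPM in the controls (8.45 ± 2.13 SD, n = 3), 9.32 in the undivided library, 19.0 and 8.12 in early spleen, and 24.2 in mid spleen. Early liver had 188.1 CPM in replicate 1 and 11.5 in replicate 2. It was at 104.7, 256.3 and 109.3 CPM in mid liver (156.8 ± 86.2 SD, n = 3) and at 52.9 and 28.6 CPM in late liver (40.7 ± 17.2 SD, n = 2). Late liver was above every control and below every mid liver library. In the order of means (control, undivided, early spleen, mid spleen, late liver, early liver, mid liver), the first 3 groups overlapped. Both early liver values were above every control and the undivided library, and their range overlapped those of the other 4 groups.

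**Figure D1:**
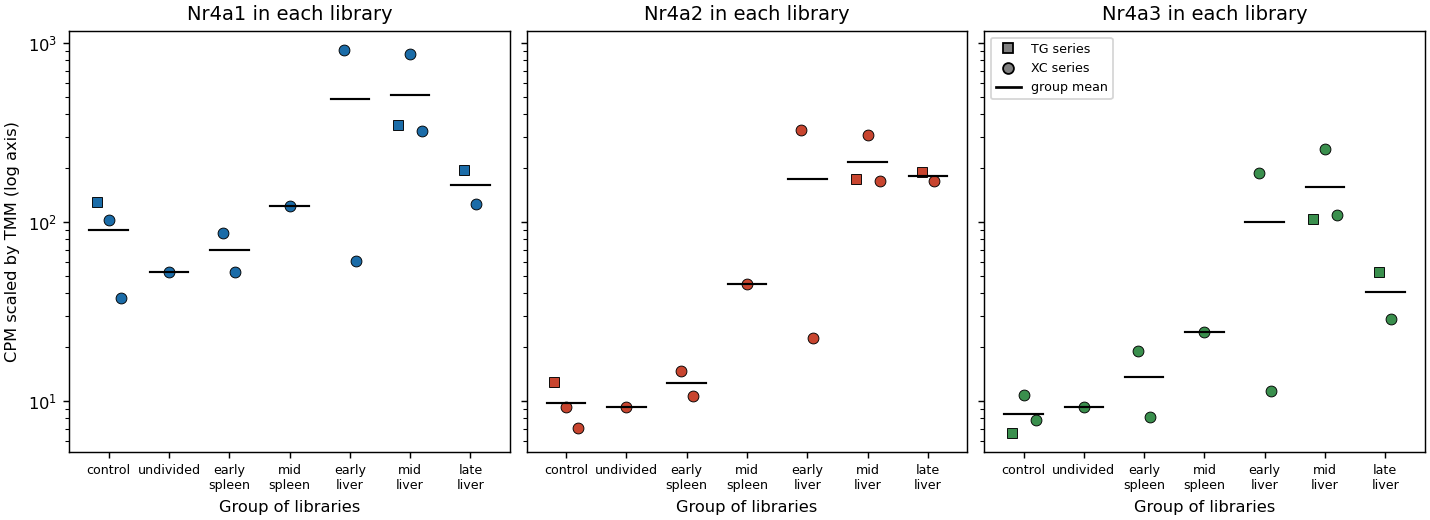
CPM scaled by TMM on a log axis for Nr4a1, Nr4a2 and Nr4a3, with 1 point per library (squares, TG; circles, XC) and a line at the mean of each of the 7 groups. In mid liver all 3 genes are above every control, and the late liver points of Nr4a1 and Nr4a3 lie below those of mid liver while those of Nr4a2 do not.

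The comparison of mid liver with control sets cells from livers of leukemia-bearing mice against cells from leukemia-free spleens. No leukemia-free liver library is among the 14, so tissue and leukemia cannot be told apart in any comparison of liver with control. Nr4a2 rose by 4.49 on the log2 scale (standard error 0.89, edgeR adjusted p = 0.0149), or 22.5-fold. Nr4a3 rose as well, by 4.20 (standard error 0.98, edgeR adjusted p = 0.0198), or 18.4-fold. Nr4a1 was not called, at 2.58 on the same scale (standard error 0.96, edgeR adjusted p = 0.0764), and at 1.88 without mid liver 2. Thus 2 of 3 members were called, beside 29.2% of all genes tested. Nr4a1 was called in DESeq2 (log2 fold change 2.59, adjusted p = 0.0275). Early liver is in neither group here but enters the shared estimate of spread. With early liver 1 left out of the edgeR fit, chosen after seeing the data, Nr4a1 stayed at 2.58 with a standard error of 0.62. The calls for Nr4a2 and Nr4a3 were lost in fits of the XC libraries alone (log2 fold changes 4.79 and 4.22, edgeR adjusted p = 0.150 and 0.152). They were also lost when either control 1, control 2, mid liver 1 or mid liver 3 was left out (edgeR adjusted p = 0.0521 to 0.0764 for Nr4a2 and 0.0589 to 0.0892 for Nr4a3), and that of Nr4a3 without control 3 (0.0547). Within each series the difference from control had 1 sign, at log2 1.42 in TG and 3.09 in XC for Nr4a1, 3.76 and 4.80 for Nr4a2, and 3.96 and 4.17 for Nr4a3.

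In late liver against control edgeR called only Nr4a2 of the members, and no test between members was made. Nr4a2 rose 18.3-fold, or by 4.20 on the log2 scale (standard error 0.91, edgeR adjusted p = 0.0129). Nr4a3 differed by 2.35 (standard error 1.02, edgeR adjusted p = 0.105), which became 1.56 without late liver 1, 3.09 without late liver 2 and 1.36 with counts scaled from TPM. Its 2 late liver values exceeded the 3 controls, and the share of all genes that separate in this way was not counted. For Nr4a1 the log2 difference was 0.80 (standard error 0.99, edgeR adjusted p = 0.545). Of all genes tested, 34.2% were called in this comparison, against 1 of 3 members. Nr4a3 was called by DESeq2 (2.37, adjusted p = 0.0478). Without early liver 1 in the edgeR fit, an omission chosen after seeing the data, its log2 fold change stayed at 2.35. Nr4a2 was not called without control 1 (4.55, edgeR adjusted p = 0.0541). It was also not called in the XC libraries alone (4.32) or without late liver 1 or late liver 2 (4.18 and 4.23). With mid and late liver together against control, 43.8% of genes were called. There the log2 fold change was 4.34 for Nr4a2 (standard error 0.85, edgeR adjusted p = 0.00657) and 3.28 for Nr4a3 (standard error 0.91, edgeR adjusted p = 0.0226), both called, and 1.69 for Nr4a1 (standard error 0.86, edgeR adjusted p = 0.141). The call for Nr4a2 held without any 1 of these 8 libraries, and that of Nr4a3 was lost without any 1 of the controls or late liver 1 (edgeR adjusted p = 0.0584 to 0.105).

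From mid to late liver the levels of Nr4a1 and Nr4a3 were lower, but no member passed the test. Nr4a1 was 3.44-fold lower in late liver, -1.78 on the log2 scale (standard error 1.10, edgeR adjusted p = 0.980), and Nr4a3 3.60-fold lower, -1.85 (standard error 1.08, edgeR adjusted p = 0.980). Nr4a2 differed by -0.30 (standard error 0.88, edgeR adjusted p = 0.994). The groups of Nr4a1 and Nr4a3 did not overlap. With 2 against 3 libraries, and the share of all genes that separate likewise not counted, this is a description only. In this comparison edgeR called 0 genes (0%) of the whole transcriptome, 764 had an unadjusted p under 0.05, and DESeq2 called 52. Among all genes tested, 1.44% had a lower fitted log2 fold change than Nr4a1 and 1.37% a lower one than Nr4a3. In the TG series, late liver 1 differed from mid liver 1 by log2 -0.84 for Nr4a1, -0.98 for Nr4a3 and 0.14 for Nr4a2. In the XC series, late liver 2 differed from the mean of mid liver 2 and 3 by -2.08, -2.55 and -0.42. Both series thus had lower Nr4a1 and Nr4a3 late than mid, and Nr4a2 had opposite signs in the 2 series. Hepatocyte markers were also higher in late than in mid liver of the same series (290.1 against 176.4 CPM in TG, 65.9 against 2.63 and 18.3 in XC), and their part in the result was not tested.

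**Figure D2:**
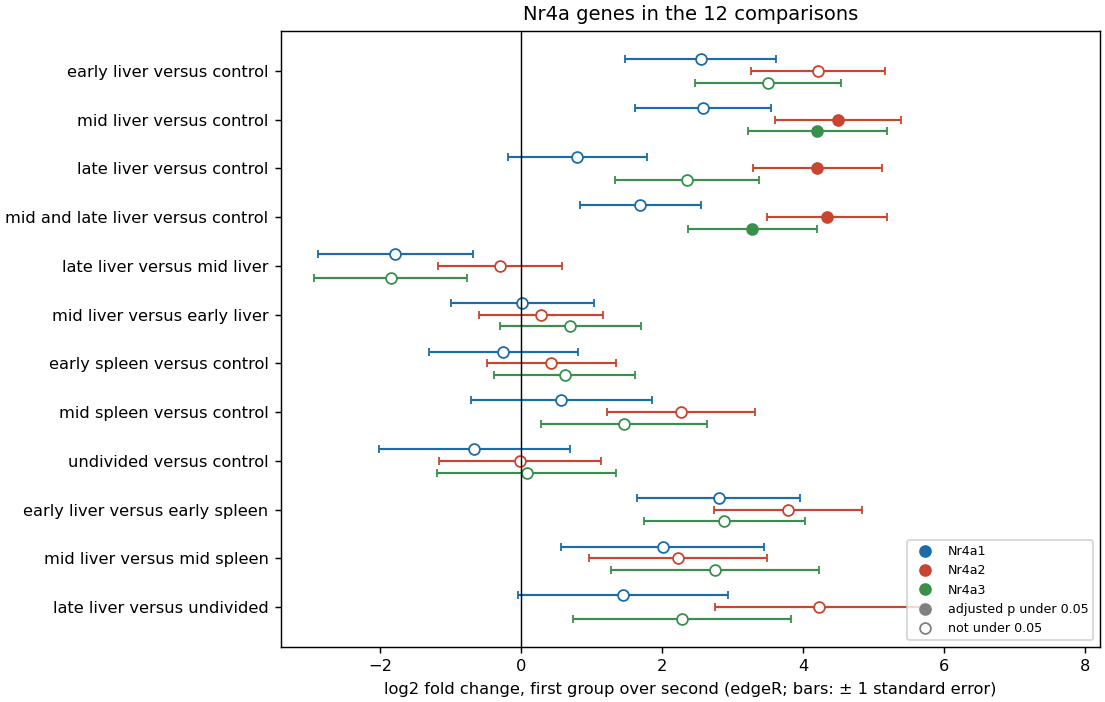
Log2 fold change of each member, first group over second, in the 12 comparisons, with bars of 1 standard error from edgeR. Filled points mark an adjusted p under 0.05 and are found for Nr4a2 in mid, late and pooled mid and late liver against control and for Nr4a3 in mid and pooled mid and late liver against control.

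The early liver libraries differed 15.0-fold in Nr4a1, 14.5-fold in Nr4a2 and 16.4-fold in Nr4a3. Against control the log2 fold changes were 2.55 (standard error 1.07), 4.21 (0.95) and 3.50 (1.03) for Nr4a1, Nr4a2 and Nr4a3, with edgeR adjusted p of 0.453, 0.402 and 0.402. With replicate 1 alone the 3 genes were called (log2 fold changes 3.46, 5.11 and 4.41, edgeR adjusted p = 0.0350, 0.000145 and 0.00728), and with replicate 2 alone Nr4a1 was below the control mean (-0.45, edgeR adjusted p = 1). Against early spleen, sorted on the same day, the differences were 2.80 (1.16), 3.78 (1.05) and 2.88 (1.14), each with an edgeR adjusted p of 0.544. From early to mid liver they were 0.02, 0.28 and 0.70 on the log2 scale (edgeR adjusted p = 0.993, 0.880 and 0.726), and without early liver 1 they became 3.03, 3.23 and 3.83. In the fit of all 14 libraries, edgeR called no gene in any of these 3 comparisons (0% each), which does not hold for fits without 1 early liver library. In the full fit 1676, 1395 and 2377 genes had an unadjusted p under 0.05, and DESeq2 called 410, 61 and 504. DESeq2 called Nr4a2 and Nr4a3 in early liver against control (4.23, adjusted p = 0.00115, and 3.51, adjusted p = 0.0329) and Nr4a2 against early spleen (3.78, adjusted p = 0.0381).

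The spleen libraries show whether the genes were also higher outside the liver. Mid spleen, a single library that is assumed to vary like the other groups, differed from control by log2 2.27 for Nr4a2 (standard error 1.05), 1.46 for Nr4a3 (1.18) and 0.57 for Nr4a1 (1.28), with edgeR adjusted p of 0.840, 0.848 and 0.948. Mid liver was above mid spleen by 2.22 (1.26), 2.75 (1.47) and 2.01 (1.44) for the same genes (edgeR adjusted p = 0.711, 0.711 and 0.716). In each of these comparisons edgeR called 1 gene, 0.00648% of those tested, and it was no member. Without early liver 1 in the fit, chosen after seeing the data, Nr4a2 stayed at 2.27 in mid spleen against control, with a standard error of 0.38. Early spleen differed from control by -0.25, 0.43 and 0.62 for Nr4a1, Nr4a2 and Nr4a3 (edgeR adjusted p = 0.985, 0.968 and 0.960). Here edgeR called 0 genes (0%), 972 had an unadjusted p under 0.05, and DESeq2 called 14.

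The undivided library asks what cells in leukemia-bearing mice look like when they have kept their division dye. It differed from control by -0.66 for Nr4a1 (standard error 1.35), -0.02 for Nr4a2 (1.15) and 0.08 for Nr4a3 (1.27), each with an edgeR adjusted p of 1, and all 3 values lay within the range of the controls. Neither edgeR nor DESeq2 called any gene here (0%), and 172 had an unadjusted p under 0.05. Late liver was above the undivided library by 1.45 (1.49), 4.22 (1.47) and 2.28 (1.54) on the log2 scale (edgeR adjusted p = 0.560, 0.146 and 0.385). For that comparison edgeR called 0 genes (0%), 3737 had an unadjusted p under 0.05, and DESeq2 called 1937, among them Nr4a2 (4.22, adjusted p = 0.0113).

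The balance between the members was also compared. The ratio of Nr4a1 to Nr4a2 in CPM was 10.2 in control 1, the highest of all in control 2 and 5.31 in control 3. It was 5.67 in the undivided library, 5.89 and 4.91 in early spleen and 2.70 in mid spleen. It was 2.79 and 2.69 in the early liver libraries, whose levels of either gene differed by 14.5-fold or more. In mid liver it was 2.01, 2.83 and 1.92, and in late liver 1.02 and 0.741, the lowest of all libraries. The ratio of Nr4a3 to Nr4a2 was likewise lowest in late liver, at 0.277 and 0.168, against 0.508 to 1.29 elsewhere. The ratio of Nr4a1 to Nr4a3 was 3.68 and 4.41 in late liver and 2.97 to 3.40 in mid liver.

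Levels of different genes can be compared only per transcript length, for which the TPM of the protein-coding transcripts were used. On this scale Nr4a1 was 92.6%, 94.2% and 86.8% of the 3 genes' TPM in the controls and 51.1% and 51.0% in late liver. Nr4a2 made up 6.49%, 4.92% and 9.11% in the controls, 17.3% in mid spleen, 19.4% and 19.5% in early liver, 26.9%, 19.2% and 25.5% in mid liver, and 43.2% and 46.5% in late liver. Late liver thus held the 2 highest shares of Nr4a2. Nr4a3 stayed between 0.916% and 7.92% in all 14 libraries. These shares depend on the division between coding and noncoding transcripts. With all transcripts counted, Nr4a1 was 60.9% to 81.5% in controls and 45.0% and 31.6% in late liver 1 and 2, and Nr4a3 was 6.82% to 21.6% over the 14 libraries. Nr4a2 was then 11.6% to 21.9% in controls and 47.3% and 57.8% in late liver, again its highest shares and there above Nr4a1, and in control 2 Nr4a3 (9.77 TPM) was above Nr4a2 (7.01 TPM). In coding TPM, Nr4a1 was at 32.6 ± 13.5 (SD, n = 3) in controls and 44.6 ± 4.46 (SD, n = 2) in late liver, and Nr4a2 at 2.24 ± 0.506 (SD, n = 3) and 39.3 ± 5.97 (SD, n = 2).

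**Figure D3:**
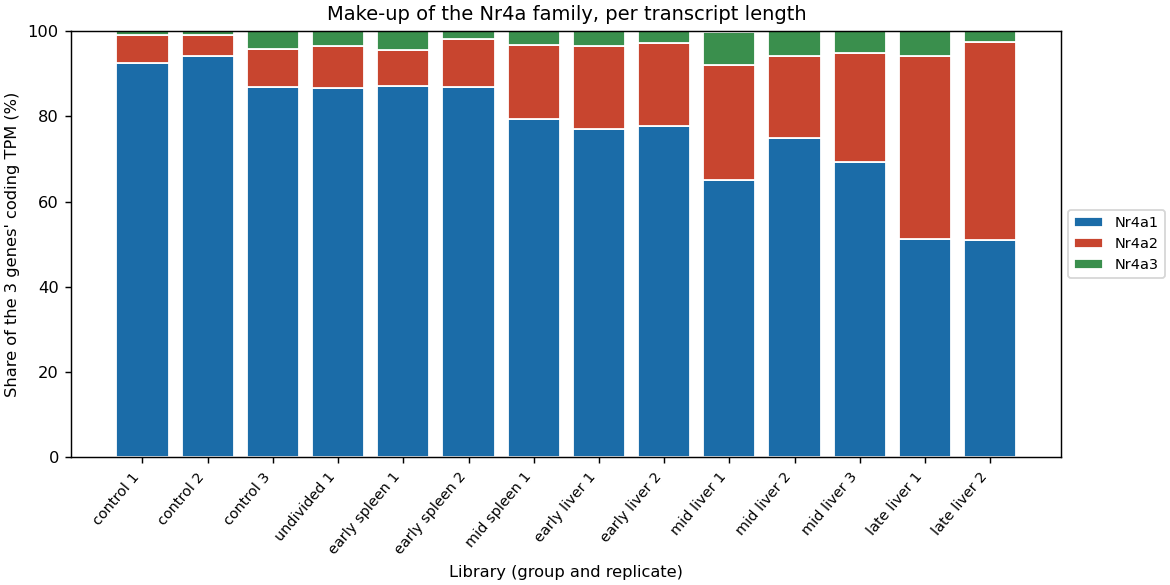
Share of each member in the summed TPM of the 3 genes' protein-coding transcripts (%), with 1 bar per library in the order of the groups. Nr4a1 takes 86.6% to 94.2% in control, undivided and early spleen libraries and 51.0% and 51.1% in late liver, where Nr4a2 takes 43.2% and 46.5%.

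The transcripts differed in how far they could be told apart. Nr4a1-201, a protein-coding model of 7 exons, held 89.2% to 96.9% of the counts of Nr4a1 in each library. For Nr4a2, the coding models Nr4a2-202 and Nr4a2-201 held 40.4% to 58.3% and 0.0% to 41.9%, and the noncoding Nr4a2-205 2.4% to 42.4%. For Nr4a3, the coding Nr4a3-201 held 22.3% to 80.0% and the noncoding Nr4a3-204 7.6% to 45.3%. Coding transcripts together held 55.0% to 74.2% of the counts of Nr4a2 in controls and 74.6% and 93.2% in late liver, and 22.3% to 55.6% and 53.9% to 92.4% of those of Nr4a3. The highest shares in mid and late liver were in the TG libraries (91.9% and 93.2% for Nr4a2, 90.5% and 92.4% for Nr4a3), against 74.6% to 79.0% and 53.9% to 64.1% in XC. Nr4a2-205 held 2.4% to 8.2% in TG and 15.6% to 42.4% in XC libraries, so the 2 series did not overlap. Kallisto divides reads between models that share exons, and the error of that division is in none of these shares.

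**Figure D4:**
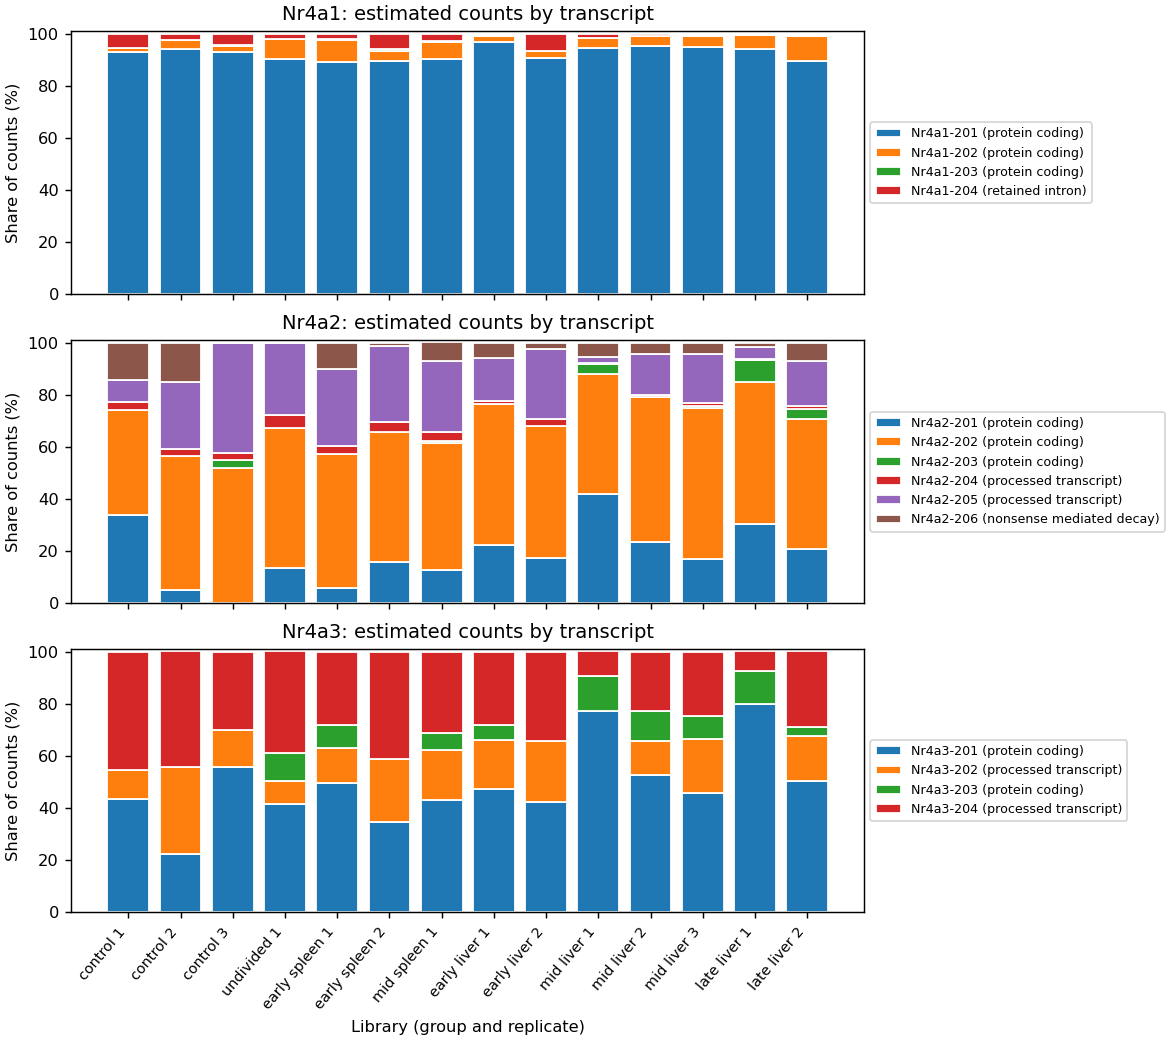
Share of each gene's estimated counts held by each annotated transcript (%), with 1 bar per library. Nr4a1-201 holds at least 89.2% everywhere, while the split within Nr4a2 and Nr4a3 varies between libraries, with little Nr4a2-205 (2.4% to 8.2%) in control 1, mid liver 1 and late liver 1.

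The genes with the most similar pattern were found by the root-mean-square difference of centred log2 CPM over the 14 libraries, among 9015 genes with a mean log2 CPM of at least 3. These are descriptions, and the points share library depth and scaling. For Nr4a1 they were Slamf1 (0.60), a costimulatory receptor of lymphocytes, Map2k3 (0.63), a kinase that activates p38, Trib3 (0.66), a pseudokinase of the stress response, Nr4a3 itself (0.67) and Serpinb9 (0.71), an inhibitor of granzyme B. For Nr4a3 they were Slamf1 (0.56), Egr2 (0.61), a zinc finger factor induced by T cell receptor signalling, Eea1 (0.64), an early endosome protein, Crtam (0.64), an adhesion receptor of activated cytotoxic T cells, and Hivep3 (0.65), a zinc finger protein. For Nr4a2 they were Hk2 (0.32), a glycolytic hexokinase, Ptger2 (0.54), a receptor for prostaglandin E, Eea1 (0.58), Hivep3 (0.62) and Tnfsf14 (0.68), the cytokine LIGHT. The median difference over all genes compared was 1.41 for Nr4a1, 2.05 for Nr4a2 and 1.75 for Nr4a3. Nr4a1 and Nr4a3 were close to each other (rank 4 and rank 6). Nr4a2 was also near Nr4a3, with a difference of 0.78, at rank 12 for Nr4a3 and with Nr4a3 at rank 19 for Nr4a2. It was further from Nr4a1 (1.09), at rank 509 for Nr4a1 and with Nr4a1 at rank 142 for Nr4a2. Hk2 was at 1.35 to 2.58 CPM in controls, 34.6 to 44.1 in mid liver and 30.0 and 30.9 in late liver.

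Other early response genes of T cell receptor signalling were mixed. Of 19 measured, 10 rose and 5 fell in mid liver against control (median log2 fold change 1.31, against -0.07 over all genes), and 5 rose and 3 fell in late liver (median 0.54, against -0.04). Of all genes tested, 29.2% were called in mid liver and 34.2% in late liver against control. The 5 that rose in late liver were Spry1 (log2 fold change 6.70), an inhibitor of receptor signalling, Tnfrsf9 (6.44), the receptor 4-1BB, Irf4 (5.43), a transcription factor, Egr2 (2.92) and Nab2 (1.56), a corepressor of Egr factors. Those that fell were Fos (-3.89), Btg2 (-1.43) and Zfp36 (-1.32). Cd69, an activation marker, was at 272.5 to 556.5 CPM in controls and 131.1 and 237.2 in late liver (log2 fold change -1.11, edgeR adjusted p = 0.0705). From mid to late liver none of the 19 was called, and 13 were lower (median -0.19, against 0.02), while 51.9% of all genes tested were higher.

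Of 16 regulators upstream of the Nr4a genes, 2 rose and 2 fell in mid liver against control (median log2 fold change -0.17), and 2 rose and 4 fell in late liver (median -0.20). These counts are near the 29.2% and 34.2% of all genes called. Those that rose were in both cases Nfatc1, a calcineurin-dependent factor (1.31 in mid and 1.78 in late liver), and Crem, a modulator of CRE-driven transcription (1.07 and 1.54). Crtc3, a coactivator of CREB, fell (-1.16 and -1.07). Of 11 nuclear receptor partners and coregulators tested, only Ep300 and Crebbp were called in mid liver (-0.74 and -0.94), beside 29.2% of all genes. In late liver only Rxra, a partner of Nr4a1 and Nr4a2, was called (-1.22), beside 34.2% of all genes. Rxra was not called in mid liver (-0.80), nor were Ep300 and Crebbp in late liver (-0.62 and -0.77). The medians of that list were -0.44 in both comparisons. Of 28 other nuclear receptors tested out of 45 listed, 8 fell and none rose in mid liver (median -0.65), and 5 fell and 2 rose in late liver (median -0.62), again beside 29.2% and 34.2% of all genes called. Among those called in late liver the largest changes were those of Vdr, the vitamin D receptor (3.81, at no more than 2.76 CPM in any library), and the clock repressors Nr1d1 (-3.46) and Nr1d2 (-3.09). Rxra is in both lists. No gene of these 3 lists was called between mid and late liver (medians 0.09, 0.11 and 0.09).

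Genes linked to Nr4a factors in T cells were higher in mid and late liver. Their summed level was 131.5 to 198.5 CPM in controls, 586.5 and 138.5 in early liver 1 and 2, 936.3 to 1240 in mid liver, and 2024 and 1689 in late liver. Of 12, 7 rose and none fell in mid liver against control (median log2 fold change 2.46, against -0.07 over all genes), and 10 rose and none fell in late liver (median 3.27, against -0.04). Of all genes tested, 29.2% and 34.2% were called in these comparisons. The 10 that rose in late liver include Foxp3, which was at no more than 2.98 CPM in any library. Several of the 12 were already named by the study from these libraries, so their direction is no independent evidence. Among those called in late liver the largest changes were those of Pdcd1 (8.79), Lag3 (7.84) and Tox2 (6.37), which encode the inhibitory receptors PD-1 and LAG-3 and an HMG-box factor. Tox, a regulator of exhaustion, was at 32.4, 54.7 and 79.4 CPM in controls and at 141.9 and 275.5 in late liver, a log2 fold change of 2.13 (edgeR adjusted p = 0.00302). Between mid and late liver 11 of the 12 were higher (median 0.92), beside 51.9% of all genes tested, and none was called, while Nr4a1 and Nr4a3 were lower. The exception was Irf4 (-0.47), which is also an early response gene.

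Genes that tissue dissociation raises, some of which are also early response genes, were listed because Nr4a1 is known to respond to cell handling. Of 13 measured, 2 rose and 7 fell in mid liver against control (median log2 fold change -1.35), and none rose and 4 fell in late liver (median -1.32). Of all genes tested 29.2% and 34.2% were called, so the count in late liver is near that of all genes. Among those called in late liver the largest changes were those of Fos (-3.89), Jun (-3.29) and Zfp36 (-1.32), while Hspa1b (-2.57), Hspa1a (-2.46), Dusp1 (-2.21) and Fosb (-2.11) were not called. None was called between mid and late liver (median -0.07). Their summed level was 7379 to 9535 CPM in controls, 3709 to 6663 in mid liver and 6129 and 5537 in late liver. In early liver it was 8755 CPM in replicate 1, where all 3 Nr4a genes were high, and 16030 in replicate 2, where they were low. The listed genes were mixed there, with Hspa1b at 2020 and 4531 CPM and Egr1 at 286.9 and 94.6 CPM in replicates 1 and 2. The part of cell handling in the Nr4a levels was not tested. In these bulk libraries more cells that express an Nr4a gene and more RNA per cell cannot be told apart.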

How the data were processed

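The authors sequenced low-input RNA in 2 batches and quantified transcripts with kallisto (mm10 and GRCm38, per the labels). For every transcript the authors deposited an estimated count and a TPM, which corrects for transcript length and depth. Kallisto's version and transcript set are not given in the sources used here.

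The members and gene lists were chosen with earlier results of these data known. Transcripts were matched to GENCODE vM21 (98.09% matched, holding 98.85% to 99.19% of the counts of each library). Estimated counts were summed per gene and over the sequencing runs of a library, and rounded. A minimum of 10 counts, reached by 6 or more libraries, left 15442 genes, which were tested in all 14 libraries with edgeR 4.0.16 (quasi-likelihood, robust, TMM, group and series as terms, 6 residual degrees of freedom in the fit, two-sided), with Benjamini-Hochberg adjustment over these genes. Log2 CPM used a prior count of 2. TG or XC in the title was taken as the batch. The script was tested on simulated data. Runs of the same library differed by at most 1.09-fold for Nr4a1, 1.56-fold for Nr4a2 and 1.38-fold for Nr4a3.

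Besides the members, the genes named are the 5 most alike to each member, the members of each list with the largest called change in late liver against control (up to 3), and Egr2, Pdcd1, Tox and Cd69. Further genes were chosen after their values were seen. They are those named to complete a count of 5 or fewer, Foxp3 for its low level, and the dissociation genes named as not called or for early liver. Lists held early response genes, upstream regulators, coregulators, other nuclear receptors, genes linked to Nr4a factors, dissociation genes and markers of 7 cell types. Of the markers not given above, those of B cells summed to 0.567 to 10.7 CPM over all libraries and those of liver endothelial cells to 66.2 to 188.4. An oligo-dT library of day 0 cells entered no comparison. DESeq2 1.42.0, other scalings, filters, sets of libraries and terms were tried as alternatives. R 4.3.3 and Python 3.11.15 were used.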

Additional observations from a re-analysis of the deposited data

Results flagged for a closer look

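A further library of day 0 TCRTg101 was made with oligo-dT priming and entered no comparison. On plain CPM, without TMM, Nr4a1 was at 189.6 there, above the 3 controls at 133.3, 106.3 and 41.6. Nr4a2 was at 20.9 (20.89), above the controls at 13.1, 9.64 and 7.82, and below mid and late liver, at 137.9 or more. Both are listed because they exceed every control in a library that no comparison uses. Nr4a3 was at 7.74, among the controls at 6.85, 11.2 and 8.64. In this library Nr4a2-203 and Nr4a2-206 held 48.8% and 38.0% of the counts of Nr4a2 and Nr4a2-202 0.0%, and Nr4a3-203 held 81.5% of those of Nr4a3, so the division among transcripts was unlike that of the other libraries. The library is single, and no test was made.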

How the results depend on the processing

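No paired analysis was possible because the labels give no replicate number shared between groups. Runs were summed, groups hold 1 to 3 libraries, and a group reduced to 1 library is assumed to vary like the others. The 2 early liver libraries enter the shared estimate of spread. Unless a cause is stated below, the cause was not tested.

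In late against mid liver, Nr4a1 and Nr4a3 stayed lower under all alternatives run (-2.31 to -1.12 and -2.65 to -1.12). Without 1 library they ranged from -2.31 to -1.12 and -2.62 to -1.12, and Nr4a2 from -0.61 to 0.07, reversed without mid liver 2 (0.07).

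DESeq2 called 410 genes in early liver against control, 52 in late against mid liver, 504 in mid against early liver, 14 in early spleen and 12 in mid spleen against control, 61 in early liver against early spleen, 17 in mid liver against mid spleen and 1937 in late liver against undivided. It added calls for Nr4a1 in mid liver (2.59), Nr4a3 in late liver (2.37), and Nr4a2 (4.23) and Nr4a3 (3.51) in early liver, all against control, and for Nr4a2 in early liver against early spleen (3.78) and late liver against undivided (4.22).

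Without the count filter, standard errors of the members were smaller (0.23 to 0.45 for those called) and the genes called numbered 1293 (early liver against control), 326 (late against mid liver), 1303 (mid against early liver), 642, 630 and 221 (early spleen, mid spleen and undivided against control), 983 (early liver against early spleen), 755 (mid liver against mid spleen) and 2213 (late liver against undivided). Calls were added against control for early liver (Nr4a1 2.53, Nr4a2 4.19, Nr4a3 3.47), Nr4a1 in mid liver (2.59), late liver (0.80) and both (1.69), Nr4a3 in late liver (2.36), and mid spleen (Nr4a2 2.21, Nr4a3 1.39). They were also added in late against mid liver (Nr4a1 -1.78, Nr4a3 -1.85), early liver against early spleen (Nr4a1 2.80, Nr4a2 3.77, Nr4a3 2.87), mid liver against mid spleen (2.08, 2.30, 2.82) and late liver against undivided (1.47, 4.23, 2.28).

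Without a series term, 1761 genes were called in mid liver, 2922 in late liver and 4431 in both against control, against 4507, 5276 and 6758 with it, and 0 in mid spleen against control and in mid liver against mid spleen. In XC alone, which has fewer libraries, 0, 8 and 6 were called in the first 3 and 0 in mid spleen, Nr4a2 lost its calls in mid (4.79), late (4.32) and both (4.56), and Nr4a3 in mid (4.22) and both (2.89). In the same fit, undivided against control changed sign for Nr4a2 (0.15) and Nr4a3 (-0.02).

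Fits of only the libraries compared called 19 genes in late against mid liver, 4 in mid spleen against control, 0 in mid liver against mid spleen and 1264 in late liver against undivided. They added calls for Nr4a1 in mid (2.54) and in mid and late liver (1.66), Nr4a3 in late liver (2.18), and Nr4a2 in late liver against undivided (4.28). Leaving early liver 1 out of the fit, chosen after seeing the data, gave 209 genes in mid spleen against control, 15 in mid liver against mid spleen and 2030 in late liver against undivided. It added Nr4a1 in mid (2.58) and in mid and late liver (1.69), Nr4a3 in late liver (2.35), and Nr4a2 in mid spleen (2.27) and in late liver against undivided (4.22). Leaving out early spleen 2, also chosen then, gave 0 genes in mid spleen against control. With the first run alone, 0 were called there and in mid liver against mid spleen. Mid against early liver of Nr4a1 changed sign without TMM (-0.11) and with counts scaled from TPM (-0.01), as did undivided against control of Nr4a2 (0.16) and Nr4a3 (-0.37) with the latter.

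Without 1 library, the genes called ranged from 0 to 3617 in mid liver against control (5, 0, 3 and 32 without control 1, control 2, mid liver 1 and mid liver 3), 0 to 4388 in late liver (1365, 682 and 0 without control 1, late liver 1 and late liver 2) and 2115 to 6114 in both (2115 and 4085 without control 1 and late liver 1). Nr4a2 ranged from 4.11 to 4.78 in mid liver, with calls lost without control 1 (4.77), control 2 (4.48), mid liver 1 (4.78) or mid liver 3 (4.63), and from 4.02 to 4.55 in late liver, lost without control 1 (4.55), late liver 1 (4.18) or late liver 2 (4.23). Nr4a3 ranged from 3.65 to 4.47 in mid liver, lost without control 1 (4.07), control 2 (4.40), control 3 (4.12), mid liver 1 (4.47) or mid liver 3 (4.43), and from 2.88 to 3.65 in both, lost without control 1 (3.11), control 2 (3.45), control 3 (3.20) or late liver 1 (2.88).

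Of the members not called, Nr4a1 ranged from 1.88 to 3.05 in mid liver, from 0.46 to 1.28 in late liver and from 1.30 to 2.09 in both, and Nr4a3 from 1.56 to 3.09 in late liver.

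Early liver turned on its 2 libraries. Against control, leaving out 1 library gave 0 to 1921 genes (1921 and 1 without early liver 2 and 1, 4 without control 3), Nr4a1 from -0.45 to 3.46, Nr4a2 from 1.26 to 5.11 and Nr4a3 from 0.37 to 4.41. The lowest of each came without early liver 1, and the highest, with a call, without early liver 2. Against early spleen the ranges were 0 to 964 genes (1 and 964 without early liver 1 and 2), -0.20 to 3.71, 0.82 to 4.68 and -0.25 to 3.79. Mid against early liver gave 0 to 2542 genes (2542, 72 and 39 without early liver 1, early liver 2 and mid liver 2), Nr4a1 from -0.88 to 3.03, Nr4a2 from -0.62 to 3.23 and Nr4a3 from -0.21 to 3.83. There the lowest came without early liver 2, and without mid liver 2 Nr4a1 (-0.80) and Nr4a2 (-0.17) were also reversed. Against control, early spleen gave 0 to 165 genes (165 without early spleen 1), Nr4a1 from -0.74 to 0.08 (reversed without control 2, 0.08, and early spleen 2, 0.07) and Nr4a3 from -0.12 to 1.10 (reversed without early spleen 1). Mid spleen gave 0 to 1 gene (0 without control 1). Undivided gave Nr4a2 from -0.25 to 0.16 (reversed without control 1) and Nr4a3 from -0.02 to 0.30 (reversed without control 1, -0.01, and control 3, -0.02).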
